A study of Mus musculus with 33 samples.

Results

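How much the tumours of a single genotype differ from each other, compared with how much normal livers of a single genotype differ, was measured gene by gene on all 21 arrays of the series, for 18193 genes. The part described here is that spread within groups and not any difference between group means. All mice were 12 months old and of a mixed FVB/NT, 129S1/Svlmj and C57BL/6NT background. Normal liver was taken from wildtype mice (wt, 7 arrays) and from E2f3a knock-out mice (3aKO, 5 arrays). Hepatocellular carcinoma that had arisen spontaneously was taken from mice with an E2F1 knock-in (1KI, 5 arrays) and from mice with an E2F3b knock-in (3bKI, 4 arrays). The locus into which E2F1 or E2F3b was placed is not given in the labels, and no agent was given to any group. Genotype and tumour coincide in this design, so a difference in spread between 1KI or 3bKI and the normal livers cannot be told apart as an effect of the knock-in or of the tumour state. No tumour from a wildtype mouse and no normal liver from a knock-in mouse was analysed here. The labels do not say that every array came from a separate animal, so p-values measure the spread between these samples.

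E2F proteins are transcription factors that, with the retinoblastoma family, control entry into the cell cycle. Some members are best known as activators of DNA replication genes, whereas many mitotic genes are switched on later in the cycle through other promoter elements as well. In normal liver nearly all hepatocytes are at rest, and metabolic work is divided along the lobule: Wnt signals from the central vein keep pericentral hepatocytes expressing glutamine synthetase, ornithine aminotransferase and several cytochrome P450 enzymes, while the urea cycle is strongest near the portal tract. Hepatocellular carcinomas differ from each other in growth rate, in Wnt signalling and in how far they keep this hepatocyte programme. The spread of a gene among tumours of a single genotype describes where these samples differ from each other. By itself it does not tell a difference within tumour cells from one in cell make-up, sex or RNA quality.

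Spread was taken as the standard deviation (SD) of log2 expression among the arrays of a group, each group about its own mean. The SD ratio of a gene is its SD among the tumours over the SD pooled within wt and 3aKO. An SD from few arrays is itself imprecise. Its 95% chi-square interval runs from 0.599 to 2.87 times the SD for 5 arrays, from 0.566 to 3.73 times for 4 arrays and from 0.699 to 1.75 times for the pooled normal SD, and these intervals assume normal values. The deposited values come as 2 separately processed sets with the same normal arrays in both, 1KI with wt and 3aKO (normalization 1) and 3bKI with wt and 3aKO (normalization 2). Each tumour group was compared within its own set, and because both comparisons share their normal livers, values for 1KI and 3bKI are given side by side with no test between them.

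The arrays matched their tissue labels. The mean level of 23 hepatocyte genes lay between 12.15 and 12.50 in wt, between 12.33 and 12.49 in 3aKO and between 12.14 and 12.45 in 1KI, and between 12.10 and 12.30 in 3bKI on normalization 2, where wt lay between 12.10 and 12.46. Mean levels of acinar pancreas markers (5.15 to 5.70) and of fat and muscle markers (4.66 to 4.98) stayed low on every array. E2f1, the gene knocked in in the 1KI mice, read 6.15, 6.16, 6.47, 5.83 and 6.36 in 1KI tumours 1 to 5, against 5.84, 6.08 and 6.22 (lowest, median and highest) in wt. Tumours 3 and 5 were above the wt range and tumour 4 just below it, so this probe set did not separate the groups. The SD of 0.24 in 1KI against 0.15 in wt and 0.13 in 3aKO did not pass the test (adjusted p = 0.5645). E2f3, the gene of both the deleted 3a form and the knocked-in 3b form, read 6.58, 7.01, 6.95 and 6.74 in 3bKI tumours 1 to 4. It read 6.42, 6.79 and 6.93 (lowest, median and highest) in wt and 6.25, 6.74, 6.62, 6.64 and 6.30 in 3aKO. Its probe set is not tied to the 3a or 3b form by the files, so it does not check the labels, and its spread among 3bKI tumours did not pass the test (adjusted p = 0.9786). Female arrays, told by high Xist and low Y-linked genes, numbered 3 of 7 in wt and 3 of 5 in 3aKO. Among the tumours, 1KI tumours 1 and 5 read as female and tumours 2, 3 and 4 as male, while 3bKI tumours 1, 3 and 4 read as female and tumour 2 as unclear, with Xist at 6.56.

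The 1KI tumours lay farther from their own group centre than normal livers did from theirs. The distance, a root mean square over all genes, was 0.310, 0.351, 0.396, 0.465 and 0.334 in 1KI tumours 1 to 5, against 0.275 to 0.320 in wt and 0.247 to 0.304 in 3aKO. Tumours 2 to 5 each lay beyond every normal liver, and tumour 1 lay within the wt range. All distances of a group are taken from a shared centre, so tumours far out also lengthen the distances of the others. The values of a group are therefore not independent, which the permutation test does not allow for. The mean distance was 0.371 ± 0.061 (SD, n = 5) in 1KI and 0.281 ± 0.023 (SD, n = 12) in the normal livers, a difference of 0.0898 (exact permutation test, two-sided, p = 0.000323, of a smallest possible 0.000162). In the 3bKI group the distance was 0.291, 0.381, 0.306 and 0.239 in tumours 1 to 4. Only tumour 2 lay beyond every normal array, and tumour 4 lay nearer to its group centre than any of them. The mean of 0.304 ± 0.059 (SD, n = 4) exceeded the normal mean of 0.283 ± 0.023 (SD, n = 12) by 0.0213, which did not pass the exact permutation test (two-sided, p = 0.296, of a smallest possible 0.000549).

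**Figure D1:**
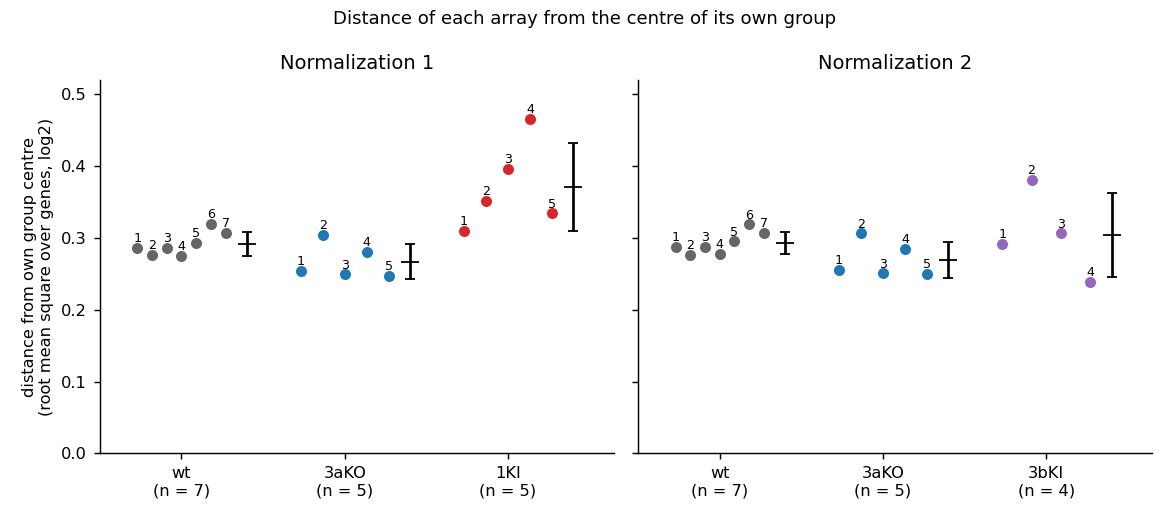
Root mean square distance of each array from the mean of its own group over 18193 genes (log2), by group and replicate number, for both normalizations; the bar beside each group is its mean ± SD. Tumours 2 to 5 of 1KI (0.334 to 0.465) and tumour 2 of 3bKI (0.381) sit above every normal liver of the same set.

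Neither tumour group had its excess spread shared evenly. Tumours 3 and 4 held 22.2% and 30.7% of the 1KI sum of squares, and tumours 1, 2 and 5 held 13.7%, 17.5% and 15.9%. With tumours 3 and 4 left out together, the difference was -0.0291 (exact permutation p = 0.16), the remaining 3 lying nearer to their own centre than normal livers to theirs. Leaving out tumour 4 alone reduced the difference to 0.0492 (exact permutation p = 0.0984), and leaving out tumour 3 alone reduced it to 0.0724 (exact permutation p = 0.0467). Tumour 2 held 38.1% of the 3bKI sum of squares, and without it the 3bKI difference was -0.0205 (exact permutation p = 0.257). Without 3bKI tumour 4, which held 15%, the difference was 0.0543 (exact permutation p = 0.0044). By these same distances, 1KI tumours 3 and 4 and 3bKI tumour 2 are the farthest of their groups. Leaving them out, with no normal liver left out to match, by itself lowers the difference. Values without them therefore describe the division and do not test it. The counts and list medians given below without them carry the same limit.

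Gene by gene, the deviations of each array from its own group mean were compared between tumours and the 12 normal livers with limma, and genes past an adjusted p of 0.05 (Benjamini-Hochberg over all genes) are described as having a larger or a smaller spread. In 1KI, 1127 genes had a larger spread (6.19% of those tested) and 17 a smaller (0.0934%). In 3bKI, 245 had a larger spread (1.35%) and 23 a smaller (0.126%). The typical gene hardly moved: its median SD was 0.186 among 1KI tumours and 0.172 among normal livers, and 0.169 among 3bKI tumours. What set 1KI apart was a tail of genes, with 2612 (14.4%) at an SD of at least 2 times the normal SD, against 1674 (9.20%) in 3bKI. Genes with a larger spread in 1KI had a median SD of 0.60, against 0.18 in wt and 0.15 in 3aKO, and a median level of 7.73, above the 6.50 of all genes. Those of 3bKI had a median SD of 0.64 against 0.16 in wt and 0.14 in 3aKO, at a median level of 6.01, below the 6.39 of all genes.

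These counts depend on how the spread was tested. The test about the group mean is most sensitive to an even division of a group, such as 2 tumours against 3. With deviations taken about the group median instead, 0 genes passed in 1KI (1197 larger and 47 smaller at an unadjusted p under 0.05; smallest adjusted p 0.15), and 34 with larger spread passed in 3bKI. The ratio of variances (F test) gave 636 genes with larger and 39 with smaller spread in 1KI, and 129 and 5 in 3bKI. The names and values below are therefore given with the level in every tumour, so that the division behind each call can be seen.

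Most genes with a larger spread in 1KI split the 5 tumours the same way. In 946 of the 1127 (83.9%), tumours 3 and 4 lay on the same side of the group mean and tumours 1, 2 and 5 on the other, a division that 24.7% of all genes showed. Tumours 3 and 4 were the higher pair in 543 of them and the lower in 403. Against normal liver, tumours 3 and 4 were the arrays that had left the normal range: 93.6% and 95.4% of the 1127 genes lay outside the range of the 12 normal livers in tumours 3 and 4, and 22.8%, 31.5% and 26.2% did in tumours 1, 2 and 5. The 1127 genes were chosen for their spread on these same arrays, which by itself raises their shares. Over all genes, with no such choice, the shares were 37.0% and 41.0%, and 15.5%, 16.3% and 15.2%. Without tumours 3 and 4, 31 genes had a larger spread, 20 of them among the 1127. Without tumour 3 alone there were 457, and without tumour 4 alone 243.

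Several of the genes with the largest increases in spread in 1KI read low in normal liver. Csn3, which encodes the milk protein kappa-casein, read 4.32, 4.52, 10.83, 10.60 and 4.53 in tumours 1 to 5, against 4.20, 4.37 and 4.63 (lowest, median and highest) in wt and 4.46, 4.46, 4.55, 4.30 and 4.12 in 3aKO. Tumours 1, 2 and 5 were at the normal level and tumours 3 and 4 stood far above it. The SD of 3.43 was 21.4 times that of normal livers, and the deviations were larger by 3.22 ± 0.198 (SE; limma, adjusted p = 5.559e-08); with tumours 3 and 4 left out the adjusted p was 0.843. Esm1, an endothelial proteoglycan, divided the tumours in the same manner (2.59, 2.46, 6.60, 7.16 and 2.38; wt 2.39 to 2.66, adjusted p = 7.954e-08). So did Elapor1, an endosome and lysosome protein (4.28, 4.26, 10.24, 9.56 and 4.30; wt 4.00 to 4.55, adjusted p = 9.913e-08), and Pglyrp1, which binds bacterial peptidoglycan (3.99, 4.92, 8.30, 8.69 and 4.36; wt 3.94 to 4.51, adjusted p = 4.746e-07).

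Fetal and carcinoma markers were among the most divided groups. Of 22 measured, 11 had a larger spread in 1KI, and the list's median log2 SD ratio was 1.24, beside 0.10 over all genes. Without tumours 3 and 4 it was 0.11, beside -0.45 over all genes. That -0.45 is the background for every list median given below without tumours 3 and 4. For every 1KI list count the background is the 6.2% of all genes that had a larger spread. Gpc3, the oncofetal proteoglycan glypican-3, read 5.39, 5.15, 11.53, 8.59 and 5.16 in tumours 1 to 5, against 4.85 to 5.21 in wt and 4.90, 4.82, 5.02, 4.81 and 4.77 in 3aKO (SD ratio 24.2, adjusted p = 7.052e-05). Golm1, a Golgi protein raised in liver disease, read 6.86, 7.49, 10.52, 10.60 and 7.42 (wt 6.03 to 6.79, adjusted p = 9.815e-07). Tumours 1, 2 and 5 were at or just above the normal range in Gpc3, and in Golm1 all 5 tumours lay above the highest normal array. Anxa2, a membrane-binding annexin, did the same (8.78, 9.48, 11.66, 12.21 and 9.09; wt 8.05 to 8.67, adjusted p = 3.092e-06). Further members were Tspan8, a tetraspanin (5.08, 5.86, 9.76, 9.04 and 5.10, adjusted p = 1.479e-06), the hydroxysteroid dehydrogenase Akr1c18 (5.63, 5.57, 9.01, 10.99 and 5.81, adjusted p = 9.082e-06) and Scd2, a fatty acid desaturase (8.03, 7.66, 12.23, 11.45 and 6.42, adjusted p = 1.522e-05). Bex1, a small adaptor protein outside this list, was above every normal liver in all 5 tumours (5.19, 5.06, 11.73, 8.18 and 4.22; wt 2.67 to 3.09) and also divided them (adjusted p = 0.0003563).

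**Figure D2:**
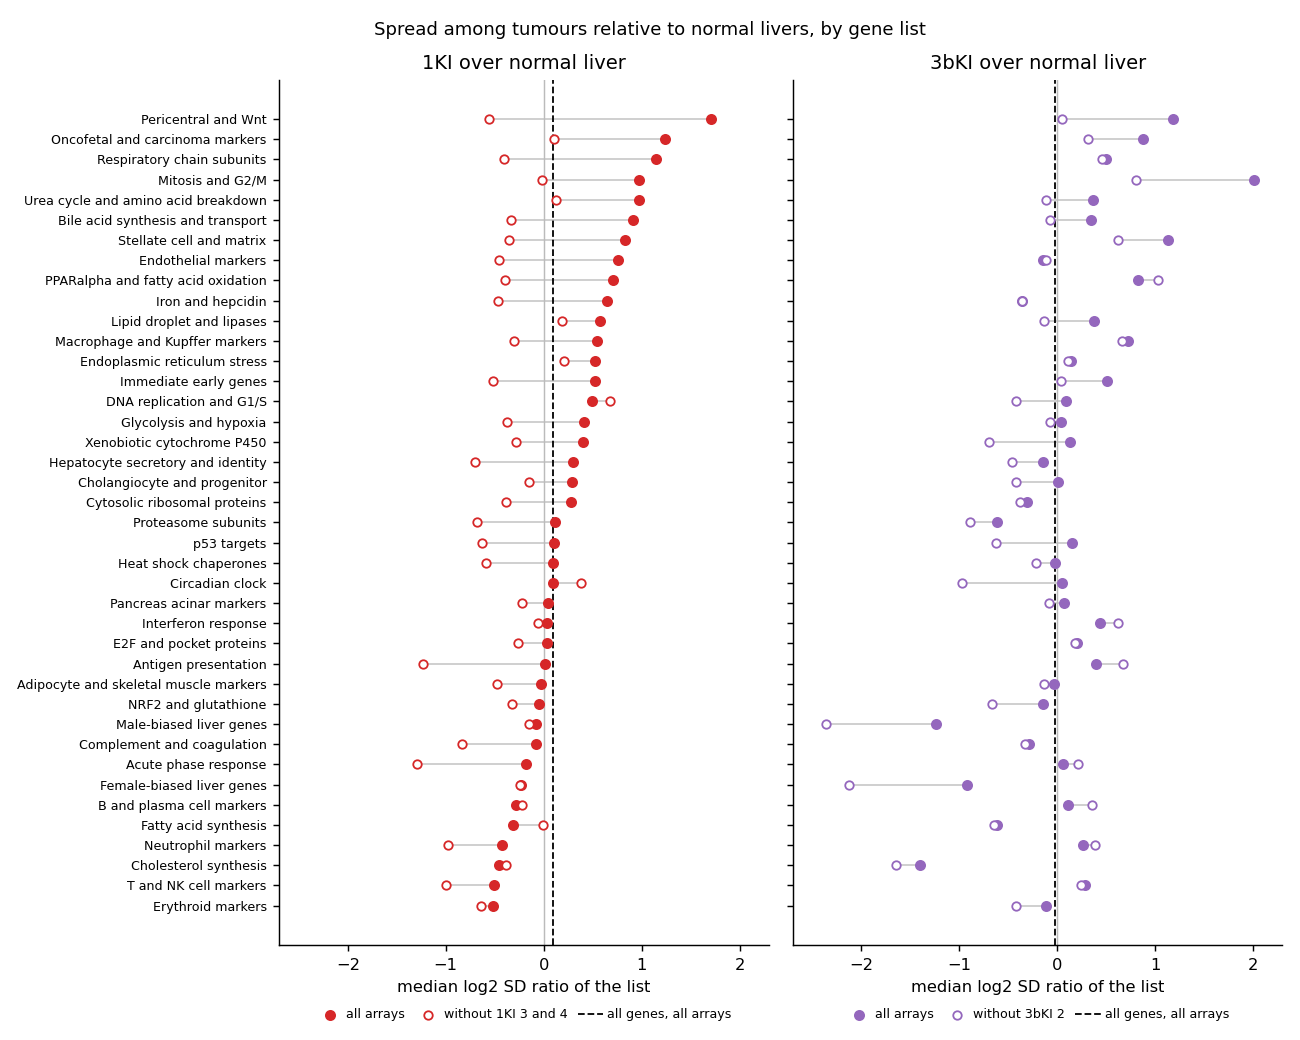
Median over each gene list of the log2 ratio of the SD among tumours to the pooled SD of wt and 3aKO, for 1KI (left) and 3bKI (right). Filled points use all arrays, and open points leave out 1KI tumours 3 and 4 or 3bKI tumour 2. The dashed line is the median of all genes on all arrays. With the same tumours left out, that median was -0.45 in 1KI and -0.21 in 3bKI. The pericentral list (1.71 in 1KI) and the mitosis list (2.01 in 3bKI) are the farthest to the right.

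The pericentral and Wnt list had the highest median of the 40 lists in 1KI. Of its 19 genes, 16 had a larger spread and 16 had an SD of at least 2 times the normal SD, and the median log2 SD ratio was 1.71; without tumours 3 and 4 it was -0.56, with 0 genes past the test, beside -0.45 for all genes. The mean of the list stood 0.83 and 1.93 below the group mean in tumours 3 and 4 and 1.00, 0.82 and 0.95 above it in tumours 1, 2 and 5, and its SD was 1.32 against 0.138 in wt. Notum, a secreted Wnt antagonist and Wnt target, read 9.32, 8.72, 6.74, 5.54 and 9.41, against 8.61, 8.86 and 9.25 (lowest, median and highest) in wt and 9.73, 9.60, 9.07, 9.39 and 9.27 in 3aKO (adjusted p = 4.377e-05). Nkd1, another feedback inhibitor of Wnt signalling, read 6.33, 6.01, 4.56, 4.46 and 6.46 (wt 5.53 to 5.94, adjusted p = 4.988e-06). Oat, the pericentral enzyme ornithine aminotransferase, read 13.27, 12.88, 10, 9.13 and 13.26 (wt 11.07 to 13.04, adjusted p = 0.0002427). The pattern was the same in these genes: tumours 3 and 4 lay below every normal liver, and tumours 1 and 5 lay above the highest wt array. Axin2, Lgr5, Tbx3, Znrf3, Sp5, Glul, Cyp2e1 and Cyp1a2 were also among the 16. Over the whole list, 17 and 19 of 19 genes were below the range of the 12 normal livers in tumours 3 and 4, and 0 were below it in tumours 1, 2 and 5.

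Hepatocyte metabolism divided along the same line. In the urea cycle and amino acid breakdown list, 12 of 27 genes had a larger spread (median log2 SD ratio 0.97; 0.13 without tumours 3 and 4), among them 4 of the urea cycle itself, Cps1, Otc, Ass1 and Asl. Gnmt, which methylates glycine and so disposes of excess methionine, read 14.18, 13.93, 12.65, 12.20 and 14.09, against 13.70, 13.94 and 14.16 in wt and 14.32, 14.32, 14.24, 14.25 and 14.35 in 3aKO (adjusted p = 9.17e-06). Hpd, of tyrosine breakdown, read 14.10, 13.74, 12.80, 11.28 and 14.03 (wt 13.73 to 14.28, adjusted p = 0.002373), and Prodh, of proline breakdown, 11.35, 10.35, 8.43, 7.36 and 11.14 (wt 10.14 to 11.48, adjusted p = 0.0004843). For all 3, tumours 1, 2 and 5 were within or close to the wt range. In this list 22 and 20 of 27 genes lay below the normal range in tumours 3 and 4, 8 in tumour 2, 1 in tumour 5 and 0 in tumour 1.

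The bile acid list had 8 of 23 genes with a larger spread (median log2 SD ratio 0.91; -0.33 without tumours 3 and 4). They span synthesis, conjugation and transport: Cyp27a1, Slc27a5, Baat, the uptake carriers Slc10a1, Slco1a4 and Slco1b2, and the export pumps Abcb11 and Abcb4. Slc27a5, the ligase that activates bile acids for conjugation, read 13.29, 13.08, 12.47, 12.15 and 13.32 (wt 13.32 to 13.52, adjusted p = 0.0001657). Baat, which then joins them to taurine or glycine, read 10.48, 10.67, 9.35, 9.74 and 10.46 (wt 10.55 to 10.98, adjusted p = 0.0006921). For both, tumours 3 and 4 were the lowest arrays of all 17.

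Drug-metabolising cytochrome P450 genes had a median SD of 1.379 in 1KI, against 0.379 in wt and 0.357 in 3aKO. The median of the log2 SD ratios of single genes was 0.40, with 8 of 25 genes larger and 1 smaller. Adjusted for sex, in which many of these genes differ, the median was 0.94. Nr1i3, the nuclear receptor CAR that controls several of them, read 10.93, 10.99, 8.48, 8.14 and 10.95, against 10.42, 11.12 and 11.52 in wt and 11.11, 10.82, 10.75, 11.11 and 11.30 in 3aKO (adjusted p = 6.143e-06). Cyp2j5 (12.38, 12.43, 10.62, 10.50 and 12.10, adjusted p = 4.874e-06) and Cyp2c38 (11.45, 10.47, 7.07, 6.08 and 11.22, adjusted p = 0.0002074) divided in the same way. Members of the Cyp2c family are close in sequence, and their probe sets may not separate them fully.

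Subunits of the mitochondrial respiratory chain combined a small absolute spread with a high ratio. They are among the steadiest genes of normal liver, with a median SD of 0.109 in wt and 0.064 in 3aKO, and the median in 1KI was 0.199. Of 34 measured subunits, 13 had a larger spread (median log2 SD ratio 1.15; -0.41 without tumours 3 and 4). Ndufv1, of complex I, read 11.40, 11.36, 10.80, 10.83 and 11.51 in tumours 1 to 5, against 11.42, 11.44 and 11.53 in wt and 11.54, 11.47, 11.39, 11.59 and 11.49 in 3aKO (adjusted p = 6.734e-05). Sdhb, of complex II, read 12.34, 12.29, 11.21, 11.61 and 12.32 (wt 12.05 to 12.62, adjusted p = 0.001623). Tumours 3 and 4 were below all 12 normal livers for both genes. The count below the normal range was 27 and 30 of 34 in tumours 3 and 4, against 1, 8 and 1 in tumours 1, 2 and 5.

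Structural genes of the ribosome lay higher in the same tumours and stayed short of the test. Of 26 cytosolic ribosomal proteins, 0 had a larger spread (median log2 SD ratio 0.28), but 14 and 15 lay above the normal range in tumours 3 and 4 and 0 did in tumours 1, 2 and 5. The hepatocyte secretory and identity list, which holds albumin, apolipoproteins and the liver transcription factors, had 0 of 23 genes with a larger spread (median log2 SD ratio 0.30), with list means within 0.20 of the group mean in all 5 tumours. Its members lay on both sides of the normal livers, however: 12 of the 23 were outside the normal range in tumour 3, 5 above and 7 below, and 13 were in tumour 4, 5 above and 8 below (52.2% and 56.5%, against 37.0% and 41.0% of all genes).

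**Figure D3:**
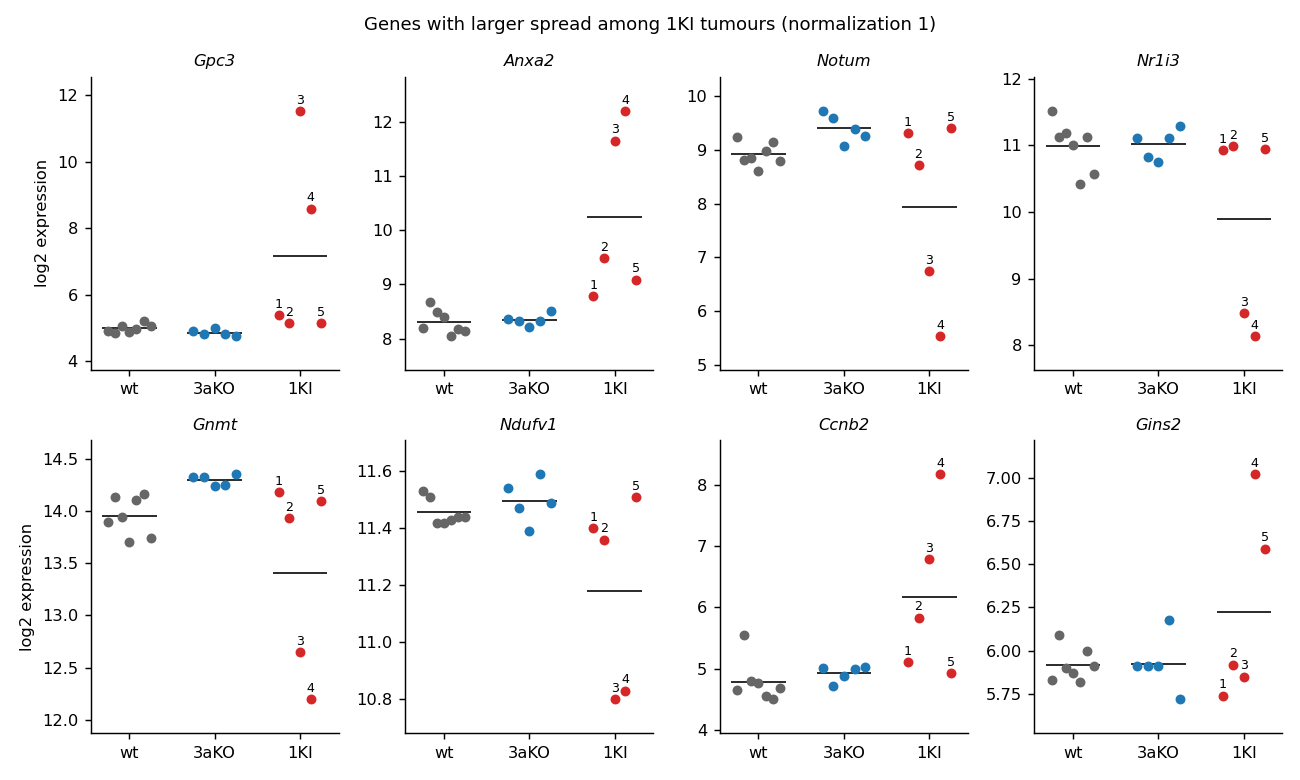
Log2 expression on every wt, 3aKO and 1KI array for 8 genes with a larger spread in 1KI; lines are group means and numbers are tumour replicates. Tumours 3 and 4 are the high pair in Gpc3 (11.53 and 8.59) and Anxa2 and the low pair in Notum, Nr1i3, Gnmt and Ndufv1, while Ccnb2 grades from tumour 5 (4.92) to tumour 4 (8.17) and Gins2 sets tumours 4 and 5 apart.

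Mitosis genes with a larger spread, such as Ccnb2, Ccna2 and Bub1, read highest in tumours 3 and 4. For mitosis and G2/M, 11 of 36 genes had a larger spread in 1KI (median log2 SD ratio 0.97; -0.02 without tumours 3 and 4). Ccnb2, cyclin B2, read 5.10, 5.83, 6.79, 8.17 and 4.92, against 4.50, 4.69 and 5.55 in wt and 5.01, 4.71, 4.88, 5.00 and 5.02 in 3aKO (adjusted p = 0.004343). Tumours 1 and 5 were within the wt range, and tumours 2, 3 and 4 above it at separate levels. Ccna2, cyclin A2, gave 5.92, 6.24, 7.12, 7.50 and 6.07 (wt 5.23 to 5.84, adjusted p = 0.002353), and Bub1, of the spindle checkpoint, 3.16, 3.28, 3.95, 4.34 and 2.96 (wt 2.58 to 3.26, adjusted p = 0.01336).

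DNA replication and G1/S genes had 2 of 35 members with a larger spread (median log2 SD ratio 0.49). That share of 5.7% is no higher than the 6.2% of all genes. Their list median was 0.68 without tumours 3 and 4, unlike that of the other metabolic and growth lists above. The tumour farthest from the group mean was tumour 5 in 16 of the 35 genes, and 23 of 35 lay above the normal range there, against 6, 0, 12 and 10 in tumours 1 to 4. Gins2, part of the replicative helicase, read 5.74, 5.92, 5.85, 7.02 and 6.59 (wt 5.82 to 6.09, adjusted p = 0.0007088), so that tumours 4 and 5 were high. Uhrf1, which couples DNA methylation to replication, read 5.22, 4.67, 6.63, 5.94 and 6.81 (wt 3.94 to 4.77, adjusted p = 0.01308), highest in tumours 3 and 5. The mean of the replication list stood 0.55 above the group mean in tumour 5 and 0.49 below in tumour 2, whereas the mean of the mitosis list stood 0.53 above in tumour 4, 0.45 below in tumour 1 and 0.11 below in tumour 5.

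Markers of the other cells of liver also varied among the 1KI tumours. In bulk tissue, fewer cells of a type and less RNA per cell cannot be told apart. The stellate cell and matrix list had 8 of 28 genes with a larger spread (median log2 SD ratio 0.83; -0.35 without tumours 3 and 4), among them the basement membrane collagen Col4a1 (8.42, 8.69, 10.73, 11.46 and 8.40; wt 7.74 to 8.31, adjusted p = 7.874e-06) and the matrix protein Sparc (9.98, 9.88, 12.71, 13.84 and 10.15; wt 9.54 to 10, adjusted p = 1.122e-05). Endothelial markers had 5 of 22 (0.76; -0.46 without tumours 3 and 4), and the 5 did not go in the same direction. Cd34 and Emcn, which mark continuous and sprouting vessels, were highest in tumours 3 and 4 (Cd34 4.98, 4.86, 7.24, 8.17 and 4.66; wt 3.45 to 4.95, adjusted p = 0.0001164). Ehd3, a marker of liver sinusoidal endothelium, was lowest there (10.14, 9.68, 8.85, 8.27 and 10.12; wt 9.58 to 9.81, adjusted p = 0.002119).

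Macrophage and Kupffer cell markers had 5 of 23 genes with a larger spread (median log2 SD ratio 0.54; -0.30 without tumours 3 and 4). Clec4f, the lectin that defines resident Kupffer cells in the mouse, read 10.97, 10.53, 8.91, 8.30 and 11.56, against 10.36, 10.63 and 11.46 in wt and 11.08, 10.60, 11.16, 10.77 and 11.46 in 3aKO (adjusted p = 0.0006958). Tumours 3 and 4 were thus below every normal liver for this marker. Cx3cr1, a receptor of recruited monocytes, was highest in tumours 4 and 2 (5.29, 6.22, 5.85, 6.52 and 5.17; wt 4.84 to 5.37, adjusted p = 0.008673). Over the list, 14 and 12 of 23 markers were below the normal range in tumours 3 and 4 and 3 and 5 above it. The part of these cells in the division of the hepatocyte genes was not tested. No member had a larger spread among T and NK cell markers (0 of 19, median log2 SD ratio -0.51), B and plasma cell markers (0 of 14, -0.28) or neutrophil markers (0 of 16, -0.43). In lists this short, a count of 0 is near the 6.2% of all genes. Mean levels of these lists in 1KI were low, between 5.14 and 6.18, beside a median of 6.50 for all genes.

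Some genes of the stress, interferon and lipid lists showed other divisions. Ddit3, the stress-induced factor CHOP, read 7.77, 9.18, 7.94, 10.74 and 7.85 (wt 7.26 to 8.16, adjusted p = 0.004591), high in tumours 4 and 2 and not in tumour 3. It was 1 of 3 genes of the endoplasmic reticulum stress list with a larger spread, of 25 (median log2 SD ratio 0.52; 0.21 without tumours 3 and 4). Rsad2, the antiviral protein viperin, divided the same pair from the rest (7.16, 9.03, 7.19, 8.61 and 7.61; wt 6.56 to 7.68, adjusted p = 0.01349). It was the only interferon gene of 27 to pass (3.7%, beside 6.2% of all genes). The list's median log2 SD ratio was 0.03, beside 0.10 over all genes. Over the interferon list, tumours 2 and 4 had 19 and 21 genes above the normal range, and tumours 1, 3 and 5 had 6, 10 and 14. The list as a whole did not set this pair apart: its mean stood 0.53 above the group mean in tumour 4, 0.11 in tumour 2 and 0.06 in tumour 5. For the endoplasmic reticulum stress list these means were 0.79 in tumour 4 and 0.15 in tumour 2.

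Of the PPARalpha and fatty acid oxidation list, 8 of 25 genes had a larger spread (median log2 SD ratio 0.71; -0.40 without tumours 3 and 4). Cyp4a31, a fatty acid hydroxylase, grouped tumours 1, 4 and 5 (8.55, 8.55 and 8.71) against tumours 2 and 3 (6.67 and 6.45), with wt at 6.61 to 7.39 (adjusted p = 1.099e-05). It kept a larger spread with tumours 3 and 4 left out (adjusted p = 0.0195). Acadvl, of mitochondrial beta-oxidation, followed the more common division (12.10, 12.12, 11.28, 11.50 and 12.23; wt 12.01 to 12.49, adjusted p = 0.002209). Of 19 lipid droplet and lipase genes, 6 had a larger spread, including Fabp4, a fatty acid binding protein (7.12, 8.09, 10.26, 11.02 and 6.82; wt 6.57 to 7.36, adjusted p = 7.054e-05). Of the 20 iron genes 5 passed. Hamp, which encodes the iron hormone hepcidin, read 14.12, 14.11, 13.04, 10.75 and 14.22 (wt 12.68 to 14.19; 3aKO 13.99 to 14.12, adjusted p = 0.03818), low in tumour 4 and, within the wt range, in tumour 3.

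**Figure D4:**
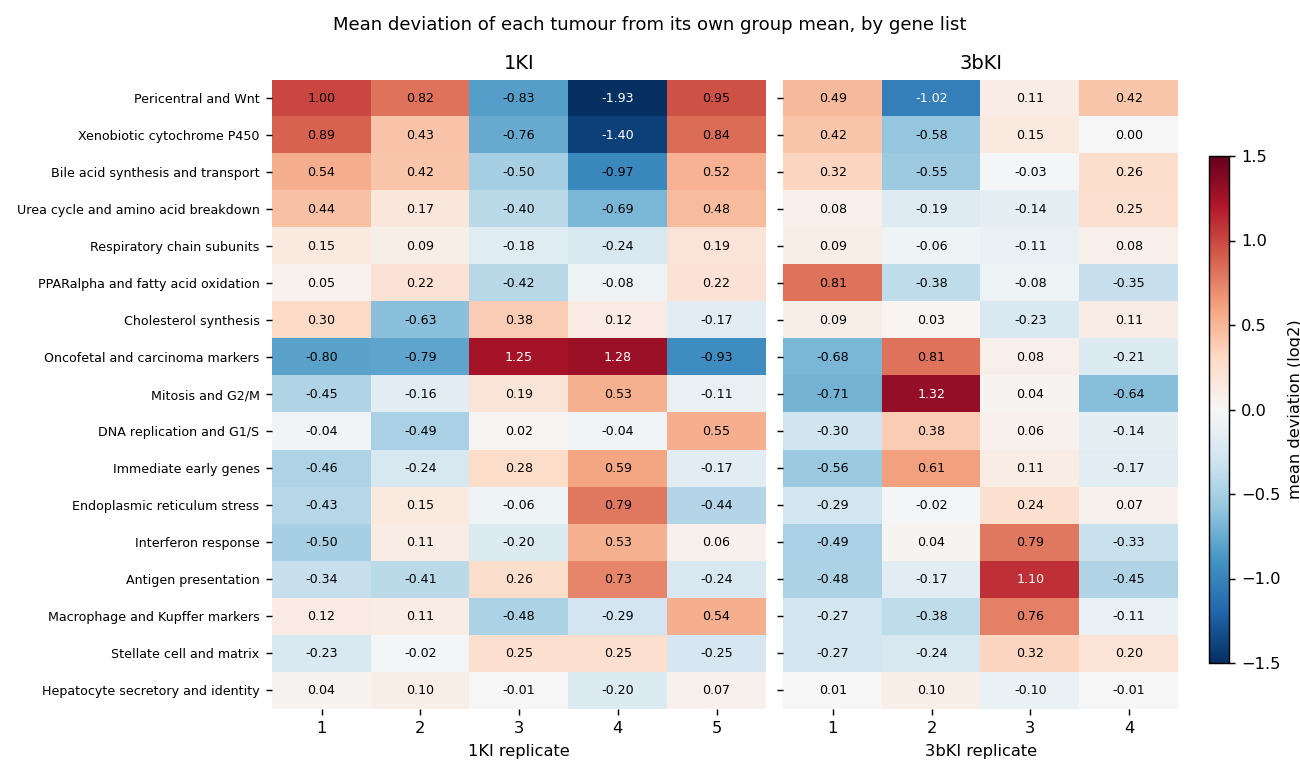
Mean deviation (log2) of each tumour from its own group mean over the genes of 17 lists, 1KI left and 3bKI right; red is above and blue below the group mean, and the colour scale ends at 1.5 either way. In 1KI the pericentral list runs from 1.00 in tumour 1 to -1.93 in tumour 4, and in 3bKI the mitosis list runs from -0.71 in tumour 1 to 1.32 in tumour 2 while tumour 3 is highest in antigen presentation (1.10).

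Few genes were steadier among 1KI tumours than among normal livers. The 17 with a smaller spread had a median SD of 0.17, against 0.59 in wt and 0.57 in 3aKO. Cd36, a fatty acid transporter, read 9.94, 9.38, 9.07, 8.56 and 9.38 in tumours 1 to 5, against 6.92, 8.35 and 10.76 (lowest, median and highest) in wt and 9.95, 6.93, 10.79, 8.69 and 10.58 in 3aKO (SD ratio 0.31; difference -1.08 ± 0.287 SE, adjusted p = 0.02753). The normal livers covered a range of over 3 log2 units and the tumours sat inside it. H2-DMa, which loads peptides onto class II molecules, read 6.94, 6.83, 7.03, 7.63 and 7.10 (wt 6.70 to 8.94, adjusted p = 0.006611). The cytochrome P450 gene Cyp3a13 (8.90, 8.86, 8.37, 8.94 and 8.82; wt 8.65 to 10.31, adjusted p = 0.02286) and Hccs, which attaches haem to cytochrome c (8.70, 8.57, 8.49, 8.59 and 8.68; wt 8.36 to 9.75, adjusted p = 0.02291), were likewise tight. With sex as a term, 6 genes in all had a smaller spread in 1KI.

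Some lists were level or low in spread in 1KI without any member passing as smaller. Cholesterol synthesis genes had a median SD of 0.448 among 1KI tumours, 0.777 in wt and 0.462 in 3aKO (median log2 SD ratio -0.46, 0 of 20 genes past the test either way). The acute phase list had a median log2 SD ratio of -0.18, with 1 of 24 genes larger (Hamp, also in the iron list), and the SD of its mean was 0.173 in 1KI against 0.670 in wt and 0.358 in 3aKO. Circadian clock genes (0 of 19, 0.09), proteasome subunits (1 of 31, 0.12) and p53 targets (1 of 21, 0.11) were near the median of all genes.

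Among the 3bKI tumours, tumour 2 was the array farthest from the group mean in 155 of the 245 genes with a larger spread. Of these 245, tumours 2 and 3 lay on the same side of the mean in 118 (48.2%; 23.4% of all genes), and tumour 2 stood alone in 67 (27.3%; 13.1% of all genes), above the others in 52. Shares of the 245 genes outside the range of the 12 normal livers were 40.8%, 86.1%, 75.9% and 54.3% in tumours 1 to 4. These genes were chosen for their spread on the same arrays, which by itself raises their shares. Over all genes the shares were 25.2%, 33.4%, 28.7% and 20.3%. Without tumour 2, 102 genes had a larger spread, 45 of them among the 245. Leaving out tumour 1, 3 or 4 instead gave 488, 506 and 587, and leaving out single normal livers gave as few as 94, so the number of 3bKI genes is a loose figure.

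Mitosis and G2/M was the list with the highest median in 3bKI. Of 36 genes, 17 had a larger spread and 30 an SD of at least 2 times the normal SD. The median log2 SD ratio was 2.01, beside -0.02 over all genes. Without tumour 2 it was 0.80, beside -0.21 over all genes, with 5 genes of the list past the test. That -0.21 is the background for every 3bKI list median given below without tumour 2. For every 3bKI list count the background is the 1.35% of all genes that had a larger spread. Ccnb2 read 4.39, 8.69, 7.00 and 5.23 in tumours 1 to 4, against 4.45, 4.62 and 5.47 (lowest, median and highest) in wt and 4.85, 4.54, 4.82, 4.86 and 5.01 in 3aKO. Tumour 1 was below every normal liver, tumour 4 was inside their range, and tumours 3 and 2 lay well above it. The SD of 1.91 was 6.49 times the normal SD (difference 1.56 ± 0.241 SE, adjusted p = 0.003561). Mki67, the proliferation marker Ki-67, gave 4.30, 8.33, 6.71 and 5.16 (wt 3.97 to 5.13, adjusted p = 0.01386), and Birc5, the inhibitor of apoptosis survivin, 4.20, 8.56, 6.40 and 4.18 (wt 3.48 to 4.83, adjusted p = 0.008391). The mitotic kinesin gene Kif20a ranked them the same way at the top (3.83, 6.20, 5.03 and 3.85; wt 3.68 to 4.21, adjusted p = 0.005374). Over the list, 33 and 27 of 36 genes were above the normal range in tumours 2 and 3, and 6 in each of tumours 1 and 4.

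DNA replication genes were much less divided. Of 35, only Uhrf1 had a larger spread in 3bKI (4.16, 5.56, 5.03 and 4.26; wt 3.76 to 4.53, adjusted p = 0.03735), and the list's median log2 SD ratio was 0.09. Rrm1, the large subunit of ribonucleotide reductase, read 6.99, 8.06, 7.36 and 7.20 (wt 6.84 to 7.29) and did not pass (adjusted p = 0.1787). Tumour 2 had 15 of 35 genes above the normal range and tumour 3 had 11. With all arrays, then, the mitosis list had a higher median SD ratio than the replication list in both genotypes. It was 0.97 beside 0.49 in 1KI and 2.01 beside 0.09 in 3bKI. Without tumours 3 and 4 the order in 1KI was the reverse, -0.02 beside 0.68. The SD of the list mean in 1KI, with all arrays, was nearly the same, 0.373 beside 0.369. In wt (normalization 1) the median SD was 0.185 for mitosis genes and 0.265 for replication genes. In 3bKI without tumour 2 the medians were 0.80 beside -0.42. The difference between the lists was not tested.

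Because the mitosis genes moved together across tumours, their promoters are shown with those of replication genes. Each is the 250 bases before the gene's first listed start (RefSeq, GRCm38.p6), written 5′ to 3′ on the gene's own strand. Ccnb2 (chr9:70421555-70421804, minus strand) and Mki67 (chr7:135716380-135716629, minus strand) stand for the mitosis list. Uhrf1 (chr17:56303087-56303336, plus strand) and Rrm1 (chr7:102441445-102441694, plus strand) stand for the replication list. Capitals mark 3 motifs, on either strand: TTTGAA, the core of the cell cycle homology region through which late cell cycle genes are repressed in resting cells; CCAAT, the site of NF-Y; and GCGGGAA, a form of the E2F site. The motifs do not overlap each other in these stretches.
Ccnb2: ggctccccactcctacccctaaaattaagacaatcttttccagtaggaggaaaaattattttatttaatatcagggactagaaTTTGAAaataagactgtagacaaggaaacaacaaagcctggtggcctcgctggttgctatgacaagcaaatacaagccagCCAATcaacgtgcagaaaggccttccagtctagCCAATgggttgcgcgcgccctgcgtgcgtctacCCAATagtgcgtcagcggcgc
Mki67: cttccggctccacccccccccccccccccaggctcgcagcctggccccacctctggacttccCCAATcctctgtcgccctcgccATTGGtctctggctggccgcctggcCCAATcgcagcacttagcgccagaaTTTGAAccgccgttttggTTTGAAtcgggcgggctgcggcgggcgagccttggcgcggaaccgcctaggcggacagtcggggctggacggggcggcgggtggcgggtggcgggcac
Uhrf1: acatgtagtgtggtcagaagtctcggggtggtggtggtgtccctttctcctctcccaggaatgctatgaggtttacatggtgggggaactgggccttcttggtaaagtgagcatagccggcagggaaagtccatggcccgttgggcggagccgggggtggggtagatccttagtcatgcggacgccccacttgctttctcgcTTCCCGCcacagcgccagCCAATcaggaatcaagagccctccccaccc
Rrm1: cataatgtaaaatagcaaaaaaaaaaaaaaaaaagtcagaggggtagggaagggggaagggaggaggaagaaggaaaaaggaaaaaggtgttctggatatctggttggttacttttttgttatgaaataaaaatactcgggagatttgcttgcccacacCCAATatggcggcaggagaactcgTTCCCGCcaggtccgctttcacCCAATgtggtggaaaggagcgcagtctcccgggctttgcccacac
The first 2 hold TTTGAA and 3 CCAAT each with no GCGGGAA, and the other 2 hold GCGGGAA and CCAAT with no TTTGAA. Over the lists, CCAAT was in 24 of 30 mitosis promoters (80.0%), in 17 of 30 replication promoters (56.7%) and in 35.7% of the 14452 promoters of all measured genes that had an entry. TTTGAA was in 33.3%, 10% and 11.9% of the same sets. GCGGGAA was in 0 of 30, in 7 of 30 (23.3%) and in 5.70%. For 19 pericentral genes, 12 with an entry, the shares were 41.7% (CCAAT), 16.7% (TTTGAA) and 0 of 12 (GCGGGAA). These matches describe letters in a window and do not show that a factor binds there.

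Fetal and secreted markers were led by tumour 2 as well. Of the fetal and carcinoma marker list, 6 of 22 had a larger spread in 3bKI (median log2 SD ratio 0.88; 0.31 without tumour 2). Gpc3 read 5.02, 8.37, 4.73 and 5.02 (wt 4.47 to 4.90, adjusted p = 0.01056), so that it marked tumour 2 alone. Akr1c18 (5.54, 10.35, 5.96 and 6.17; wt 5.17 to 5.73, adjusted p = 0.01175) and Anxa9, an annexin that had the largest increase of all (5.10, 13.23, 5.55 and 5.11; wt 4.66 to 5.59; 3aKO 4.58 to 5.07, adjusted p = 0.009809), also stood out in tumour 2. Slpi, a secreted protease inhibitor, separated tumours 2 and 3 from 1 and 4 (9.35, 12.72, 11.70 and 8.94; wt 7.53 to 8.54, adjusted p = 0.0002037), with all 4 tumours above the normal livers. It had the lowest adjusted p of the 3bKI comparison. Bex1 was above every normal liver in all 4 tumours (4.00, 10.98, 5.81 and 5.63; wt 2.53 to 2.99, adjusted p = 0.02128).

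The pericentral and Wnt list had 3 of 19 genes with a larger spread in 3bKI and 11 with an SD of at least 2 times the normal SD (median log2 SD ratio 1.18; 0.05 without tumour 2). Notum read 9.21, 7.18, 7.62 and 8.99, against 8.50, 8.79 and 9.15 in wt and 9.63, 9.50, 8.95, 9.31 and 9.10 in 3aKO (adjusted p = 0.0003905). Nkd1 read 6.22, 4.94, 5.15 and 6.06 (wt 5.48 to 5.89, adjusted p = 0.0006342). Tumours 2 and 3 were below every normal liver in both genes, while tumours 1 and 4 were within the normal span. Cyp2e1, the ethanol-oxidising pericentral P450, was the steadiest of these in normal liver (wt 14.00 to 14.20) and read 14.05, 12.39, 13.51 and 13.84 in the tumours (adjusted p = 0.03189). In the whole list tumour 2 had 14 of 19 genes below the normal range, tumour 3 had 6, tumour 4 had 2 and tumour 1 had 1. Nr1i3 (11.10, 9.16, 9.74 and 10.65, adjusted p = 0.03801), Gnmt (13.85, 13.09, 13.32 and 14.00, adjusted p = 0.01849) and the bile acid carrier Slc10a1 (12.76, 11.99, 11.90 and 12.58, adjusted p = 0.01262) also divided tumours 2 and 3 from 1 and 4. Gnmt and Slc10a1 were the only members to pass of 27 urea cycle and amino acid genes (median log2 SD ratio 0.37) and of 23 bile acid genes (0.34). Respiratory chain subunits had 0 of 34 (0.50), with 22 and 26 below the normal range in tumours 2 and 3 and 6 and 8 in tumours 1 and 4.

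Immune genes were highest in a different 3bKI tumour. Tumour 3 lay above the range of the 12 normal livers in all 16 antigen presentation genes, in 26 of 27 interferon genes and in 19 of 23 macrophage markers. Tumour 1 did so in 0, 2 and 3 of these genes, tumour 2 in 1, 13 and 5, and tumour 4 in 0, 10 and 5. The interferon list had 2 of 27 genes with a larger spread, beside 1.35% of all genes (median log2 SD ratio 0.44), Ifit2 (4.58, 6.69, 7.03 and 4.71; wt 3.67 to 5.17, adjusted p = 0.002379) and Oas1a (7.71, 9.65, 9.57 and 8.54; wt 6.78 to 7.89, adjusted p = 0.04896), both high in tumours 2 and 3. The antigen presentation list had 0 of 16 (median log2 SD ratio 0.40). H2-DMa read 7.47, 7.24, 9.98 and 7.39 in tumours 1 to 4, against 6.47, 7.04 and 8.73 in wt and 6.76, 7.24, 8.25, 6.63 and 8.49 in 3aKO, and its SD of 1.31 against 0.92 in wt did not pass (adjusted p = 0.6526). The complement gene C1qb, made by macrophages, had the same shape (9.88, 10.03, 11.73 and 10.04, adjusted p = 0.3103). Gpnmb, a glycoprotein of lipid-loaded macrophages, was the 1 macrophage marker of 23 to pass and was highest in tumours 2 and 4 instead (5.96, 7.34, 5.72 and 6.65; wt 5.38 to 5.71, adjusted p = 0.008391). T and NK cell markers had 0 of 19 (median log2 SD ratio 0.28), with 10 above the normal range in tumour 3 and 3, 0 and 0 in tumours 1, 2 and 4. More infiltrating cells and more expression per cell cannot be told apart here either.

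Matrix genes divided the 3bKI tumours into 3 and 4 against 1 and 2 for some members and into 2 and 3 against 1 and 4 for others. The stellate cell and matrix list had 5 of 28 genes with a larger spread and 17 with an SD of at least 2 times the normal SD (median log2 SD ratio 1.13; 0.62 without tumour 2). Pdgfrb, the growth factor receptor of stellate cells, read 7.08, 6.73, 7.93 and 7.98 (wt 6.52 to 7.00, adjusted p = 0.002883), and Col6a2, a microfibril collagen, 7.13, 6.73, 7.53 and 7.81 (wt 6.59 to 6.98, adjusted p = 0.03284). Col4a1 read 8.65, 10.31, 9.87 and 8.97 (wt 7.60 to 8.16, adjusted p = 0.004727), above all normal livers in every tumour. The small heat shock protein gene Cryab (6.17, 5.99, 6.88 and 7.08; wt 5.73 to 6.23, adjusted p = 0.003561) and the carbonyl reductase gene Cbr3 (5.65, 5.61, 6.17 and 6.27; wt 5.21 to 5.39, adjusted p = 0.005821) followed the division of Pdgfrb.

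PPARalpha and fatty acid oxidation genes set tumour 1 apart. The list's median log2 SD ratio was 0.83, and 1.03 without tumour 2, and tumour 1 was farthest from the mean in 20 of 25 genes. Its list mean stood 0.81 above the group mean, with tumours 2, 3 and 4 at -0.38, -0.08 and -0.35. Acadm, the medium-chain acyl-CoA dehydrogenase, read 13.38, 12.30, 12.34 and 12.46, against 12.71, 13.12 and 13.30 in wt and 13.17, 13.03, 13.03, 13.00 and 13.25 in 3aKO. Tumour 1 was above all normal livers and the other 3 below them, yet the spread did not pass (adjusted p = 0.2046). Hadhb, of the trifunctional enzyme, had the same shape (12.37, 11.54, 11.45 and 11.47; wt 11.57 to 12.08, adjusted p = 0.1813). A single tumour apart from 3 is the division to which the test about the group mean is least sensitive. Cyp4a31 was the 1 gene of 25 to pass and followed tumour 2 instead (7.17, 9.70, 8.22 and 6.12; wt 6.39 to 7.23, adjusted p = 0.027).

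**Figure D5:**
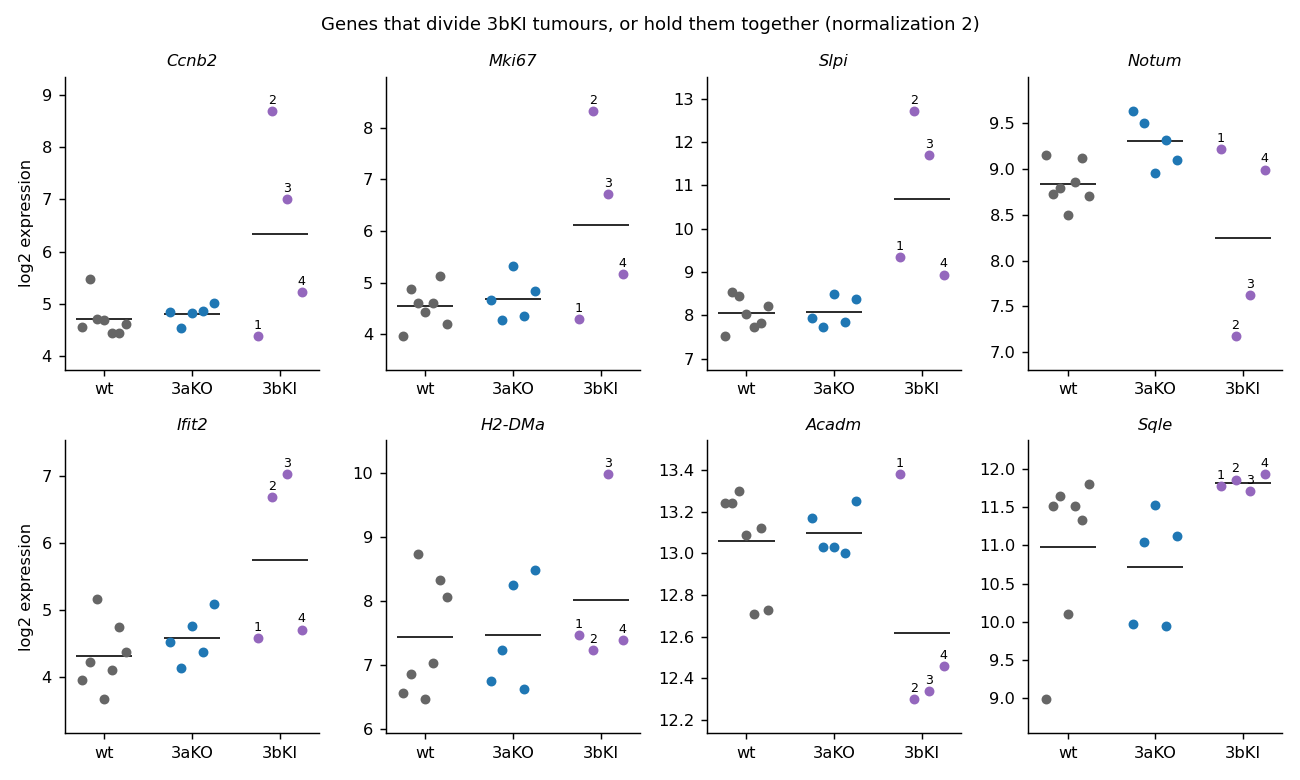
Log2 expression on every wt, 3aKO and 3bKI array for 8 genes; lines are group means and numbers are tumour replicates. Tumours 2 and 3 are high in Ccnb2 (8.69 and 7.00), Mki67, Slpi and Ifit2 and low in Notum, tumour 3 is high in H2-DMa (9.98, not past the test), tumour 1 in Acadm (13.38, not past the test), and all 4 tumours lie between 11.71 and 11.93 in Sqle.

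Of the 23 genes with a smaller spread among 3bKI tumours, 4 are in the male-biased and 2 in the female-biased list. The 23 had a median SD of 0.26, against 1.63 in wt and 1.89 in 3aKO. Sult2a2, a female-biased sulfotransferase, read 13.29, 12.32, 13.11 and 13.38, against 4.43, 7.07 and 13.58 (lowest, median and highest) in wt and 13.44, 6.02, 13.38, 6.32 and 13.52 in 3aKO (adjusted p = 0.001391). Hsd3b5, a male-biased steroid dehydrogenase, read 4.79, 5.46, 4.76 and 5.34 (wt 5.08 to 12.81, adjusted p = 0.002239). The normal groups held both sexes, and the 3bKI group held 3 female arrays and 1 unclear. Sex, genotype and tumour state therefore cannot be told apart here as sources of the smaller spread. The fit with sex as a term rests on the 3 female tumours. With sex as a term and tumour 2 left out as unclear, 3 genes had a smaller spread, 2 of them among the 23, and Sult2a2, Hsd3b5, Sult3a1, Cyp4a12a, Cyp2d9 and Ugt2b37 had adjusted p between 0.254 and 0.944. The male-biased list had 4 of 15 genes smaller and 1 larger (Mup5), and the female-biased list 2 of 18 smaller.

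Cholesterol synthesis genes were close together in the 3bKI tumours. The list's median log2 SD ratio was -1.40, and -1.65 without tumour 2, and 12 of 20 genes had an SD of at most 0.5 times the normal SD (13.6% of all genes), although 0 of 20 passed the test. The median SD was 0.242, against 0.794 in wt and 0.477 in 3aKO. Sqle, squalene epoxidase, read 11.77, 11.86, 11.71 and 11.93 in tumours 1 to 4, against 8.99, 11.51 and 11.80 (lowest, median and highest) in wt and 9.97, 11.04, 11.53, 9.94 and 11.12 in 3aKO (SD 0.10, 1.04 and 0.72, adjusted p = 0.1516). Tumours 1 and 3 were within the wt range and tumours 2 and 4 just above it, and the low normal arrays had no counterpart among them. Fatty acid synthesis genes (0 of 19, median log2 SD ratio -0.61) and proteasome subunits (0 of 31, -0.61) were also below the median of all genes.

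The normal livers of the 2 genotypes were compared in the same way as a background. In 3aKO against wt, 0 genes had a larger spread (0%) and 1 a smaller (0.0055%), with 524 larger and 1009 smaller at an unadjusted p under 0.05, and the F test gave 0 and 0. That gene, Prtn3, a neutrophil protease, had an SD of 0.20 in 3aKO and 1.82 in wt (adjusted p = 0.0242). Arrays lay 0.292 ± 0.017 (SD, n = 7) on average from the wt centre, whereas the 3aKO mean was 0.267 ± 0.025 (SD, n = 5; exact permutation test, two-sided, p = 0.0631, of a smallest possible 0.00126). The choice of reference group mattered for the counts: against wt alone 516 genes had a larger spread in 1KI and 35 in 3bKI, and against 3aKO alone 398 and 16. The log2 ratio of 3′ to 5′ actin probe sets, a sign of RNA quality, was 1.284, 1.252, 0.911, 0.951 and 1.050 in 1KI tumours 1 to 5 and 0.797, 0.698, 0.840 and 0.874 in 3bKI tumours 1 to 4, beside 0.631 to 1.376 among wt arrays. Tumours 3 and 4 of 1KI had the lowest actin values of their group. The same ratio for Gapdh did not group them: it was 0.137, 0.174, 0.067, 0.234 and 0.133 in 1KI tumours 1 to 5, lowest in tumour 3 and highest in tumour 4. All 4 actin values of 3bKI lay below those of 11 of the 12 normal arrays normalised with them, only wt 7 (0.654) being lower. Tumour 2 had the lowest actin value of its group. Gapdh values of 3bKI tumours 1 to 4 were 0.179, 0.143, 0.181 and 0.141, beside 0.154 to 0.325 among those normal arrays. The part of RNA quality in the spread of either group was not tested.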

How the data were processed

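Expression was measured on Affymetrix mouse arrays from 5 µg of total RNA per sample, per the labels' protocols. The deposited log2 values, 1 per probe set, had been normalized by the authors in 2 sets, per the labels; the method, the background correction and the software are not given in the sources used here. Of 45101 probe sets, 34945 carried 1 gene symbol, 932 several and 9160 none, and 64 were control probe sets. Each of the 18193 genes was represented by its brightest probe set on average. All 33 value columns, which hold 21 arrays, were matched to samples by their labels, and 0 columns were left out.

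Each array's absolute deviation from its own group mean, scaled for group size, was compared between tumours and normal livers with limma 3.58.1 (R 4.3.3) with Benjamini-Hochberg adjustment over all genes, a Levene-type test. All adjusted p-values are from this fit unless another is named. Distances from the group centre were compared with exact permutation tests. The tests were tested on simulated data. The 40 gene lists, 839 of whose 935 genes were measured, are described without a test, and some genes are in more than 1 list. The number of arrays limits the precision.

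Genes with values are E2f1 and E2f3, up to 12 genes with larger and up to 6 with smaller spread per tumour group by the size of the difference (leaving out predicted, immunoglobulin, Xist and Y-linked genes), and in each list the 3 of lowest unadjusted p. Other genes, such as Rrm1 and Prtn3, and the promoter motifs were chosen after their values were seen. The comparisons and lists were chosen with earlier results of these data known. Promoters come from RefSeq tables, in which 14452 of the 18193 genes were found by symbol. Alternatives were another centre, squared deviations, a variance ratio, each normal group alone, quantile normalization, dim genes left out, other uses of probe sets, limma with trend and robust settings, a term for sex, a replicate block and single arrays left out.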

Additional observations from a re-analysis of the deposited data

Results flagged for a closer look

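In all, 126 groups of values were examined, most of them 4 or 5 tumour values and a few the distances of normal livers. In 11, the highest or lowest value, always a tumour, had a gap to the next that was large for the range of its group. Chance marks about 1 in 20 groups that were not picked by their values. Most of the single genes were picked for their difference in spread, so that rate does not apply to them. Among 3bKI tumours, tumour 2 was that tumour in 7 named genes: Anxa9 at 13.23, Akr1c18 at 10.35, Elapor1 at 8.97, Klrb1b at 8.45, Gpc3 at 8.37 and Ipcef1 at 7.92 stood above the other 3, and Sult3a1 at 11.80 stood below them. Tumour 1 of 3bKI was apart in the mean of the ribosomal protein genes, at -0.10 from the group mean. Tumour 4 of 1KI was apart in the means of the glycolysis and hypoxia list, 0.37 above its group mean, and of the proteasome list, 0.18 above it. Cyp3a13 was apart in 1KI tumour 3, at 8.37.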

How the results depend on the processing

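The numbers of genes with larger or smaller spread depended on the setting, while the larger side exceeded the smaller in both tumour groups wherever any gene passed. In 1KI, against 1127 and 17, there were 516 larger and 11 smaller with wt as the only reference, 398 larger with 3aKO, 0 and 0 about the group median (1197 and 47 at an unadjusted p under 0.05), 750 and 0 with squared deviations, 636 and 39 with the variance ratio, 1847 larger over every probe set, and 705 and 6 with a term for sex. With tumours 3 and 4, the farthest of the group, left out there were 31 and 0, and the difference in distance turned to -0.0291. In 3bKI, against 245 and 23, there were 35 larger with wt alone, 16 and 8 with 3aKO alone, 34 and 0 about the median, 70 and 2 with squared deviations, 129 and 5 with the variance ratio, 103 larger without dim genes, 386 larger over every probe set, 441 and 0 with trend and robust settings, and 3 smaller with a term for sex. In 3aKO against wt, the 1 smaller gene became 0 about the median, with squared deviations, the variance ratio, quantile normalization, trend and robust settings or a term for sex, and 3 over every probe set, where the distance difference of -0.0278 passed (exact permutation p = 0.0429). The causes were not tested.

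Leaving out single arrays gave 243 to 1582 larger and 4 to 30 smaller in 1KI, with a distance difference of 0.0492 (without tumour 4) to 0.1123. The smaller count left the range of 1.5 times without wt 3 or 3aKO 3 (9 each), wt 6 (7), or 1KI 2 (30), 3 (4) or 4 (6). In 3bKI it gave 94 to 587 larger and 5 to 29 smaller, with a distance difference of -0.0205 (without tumour 2) to 0.0543 (without tumour 4, past the test). The larger count was 94 to 160 without tumour 2 and also without each of 3aKO 1 to 5 and wt 2 to 6. In 3aKO against wt it gave 0 to 8 larger and 0 to 5 smaller, with a distance difference of -0.0397 to -0.0177.

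Deviations of same-numbered arrays correlated at r of -0.469 to 0.443 over 15 pairs in the first normalization (4 over 0.1) and -0.47 to 0.303 over 13 pairs in the second (7 over 0.1, median 0.114 against -0.031 for other pairs). Since not every pair was over 0.1, the numbers were not taken to pair the samples. With a replicate block, 967 larger and 16 smaller were found in 1KI, 56 and 23 in 3bKI, and 1 and 1 in 3aKO against wt. List medians moved by less than their spread over left-out tumours in 866 alternatives for 1KI and by more in 94, and in 798 and 82 for 3bKI. The left-out tumours set this spread and are also among the alternatives, so the counts do not measure how steady the list medians are. Groups of 5 and 4 tumours limit every SD here, as the intervals given above show.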
